A study of Mus musculus with 4 samples.

Results

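The genes described here encode kinases of the ERK mitogen-activated protein kinase pathway and the Sprouty and Spred proteins that restrain it. They were chosen by name, with earlier results of these data known: Map3k8, Map2k1, Map2k2, Mapk3, Spry1, Spry2, Spred1 and Spred2. Where several probes carried a gene's symbol and no other, the one brightest on average across the 4 arrays stood for the gene. Of the 8 listed genes, 7 had such a probe, out of 19938 genes in the whole table, and Mapk3 was not analysed here. Expression was measured in macrophages grown for 7 days from bone marrow of female BalbC mice with the growth factor M-CSF supplied by L929-conditioned medium, which every condition shared. The cells were untreated (Control), given 10 ng/ml lipopolysaccharide, the bacterial ligand of the receptor TLR4 (LPS), given that LPS with 50 µM of the caspase inhibitor zVAD (LPS/zVAD), or given both with 30 µM of Nec-1, an inhibitor of the kinase RIPK1 (LPS/zVAD/Nec-1). The labels state no treatment time, no age of the mice and no pooling of animals, and no array of zVAD alone or Nec-1 alone was used. With a single Affymetrix array per condition (4 in all), differences carry neither a replicate check nor a p-value, and that number sets a limit on their precision.

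The deposited values are log2 gene-level signals, and a log2 ratio here is the difference of such signals between single arrays. Genes that differ by at least 2-fold are called higher or lower, which is a rule of size and not a test. Shares of all genes refer to the 12203 genes whose highest signal reached the median of all values (log2 6.47, the filter level). Signals under that level were not separated from background. Levels of different genes are not compared, since each probe has its own brightness. In these bulk samples, fewer cells of a type and less RNA per cell cannot be told apart.

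In the ERK pathway a kinase of the MAP3K tier phosphorylates MEK1 and MEK2, which phosphorylate the ERK kinases. Growth factor receptors enter the pathway through Ras and Raf. In macrophages given LPS the MAP3K is mainly TPL2, the product of Map3k8, which is held inactive by the NF-kB precursor p105 until that protein is degraded, and which is needed for ERK activation through TLR4. Sprouty and Spred proteins are membrane-associated inhibitors that act at the level of Ras and Raf, and Sprouty genes are themselves induced by ERK signalling in many cell types. Arrays measure RNA only, and kinase activity was not measured.

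All 8 macrophage markers examined (Csf1r, Adgre1, Cd68, Itgam, Mertk, Fcgr1, Lyz2 and Cd14) had signals of at least log2 10.19 on every array. Of 6 neutrophil markers, 5 reached the filter level on all 4 arrays, with signals up to 9.96 (Ngp in LPS), and Cxcr2 stayed under it. The median of the 6 lay between 7.66 (LPS/zVAD) and 8.21 (LPS). Of 5 stromal markers 4 passed the filter, with signals up to 7.84. Of 5 T and NK cell markers 2 passed, and of 4 dendritic cell markers 2, none with a signal above 6.77. Of 3 B cell, 2 erythroid and 4 mast cell markers 0 passed. The part of other cell types in the values below was not tested.

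RefSeq upstream sequences of build GRCm38.p6 were matched by symbol for 6 of the genes, and Map3k8 and Mapk3 were not among them. Printed here are the 250 bases before the start site of the genes whose signals spanned at least 1 log2 unit over the arrays (Spry2, Spred2 and Map2k1), with Spry1 as the relative of Spry2. Capitals mark matches on either strand to the motifs searched, of which none overlapped in these windows. Spry2 lies at chr14:105896820-105897069 on the minus strand, Spry1 at chr3:37639697-37639946 on the plus strand, Spred2 at chr11:19924192-19924441 on the plus strand and Map2k1 at chr9:64253606-64253855 on the minus strand.
Spry2: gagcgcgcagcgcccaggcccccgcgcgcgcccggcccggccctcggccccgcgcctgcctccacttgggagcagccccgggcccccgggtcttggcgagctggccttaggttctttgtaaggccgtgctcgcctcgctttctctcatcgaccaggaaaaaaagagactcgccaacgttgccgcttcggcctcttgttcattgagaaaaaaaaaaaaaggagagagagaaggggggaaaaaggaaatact
Spry1: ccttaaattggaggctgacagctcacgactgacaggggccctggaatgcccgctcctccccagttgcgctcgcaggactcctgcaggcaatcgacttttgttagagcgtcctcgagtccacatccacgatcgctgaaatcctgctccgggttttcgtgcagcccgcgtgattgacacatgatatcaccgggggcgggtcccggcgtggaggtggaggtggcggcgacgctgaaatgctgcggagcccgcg
Spred2: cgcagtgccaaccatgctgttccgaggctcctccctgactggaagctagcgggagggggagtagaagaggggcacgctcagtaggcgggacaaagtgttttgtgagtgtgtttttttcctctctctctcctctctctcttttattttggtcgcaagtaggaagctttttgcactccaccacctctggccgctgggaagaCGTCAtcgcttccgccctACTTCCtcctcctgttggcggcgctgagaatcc
Map2k1: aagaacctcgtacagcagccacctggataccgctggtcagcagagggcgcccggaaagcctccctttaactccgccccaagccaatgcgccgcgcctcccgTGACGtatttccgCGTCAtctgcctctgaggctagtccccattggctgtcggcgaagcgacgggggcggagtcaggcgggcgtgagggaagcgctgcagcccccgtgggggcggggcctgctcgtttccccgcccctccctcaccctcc

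The motifs searched were the CRE core TGACG, the AP-1 site TGANTCA, the ETS core GGAAGT, the NF-kB site, the interferon-stimulated response element and the CArG box of serum response factor. Among all 32851 upstream windows of this length, 17.8% held the CRE core, 6.75% the AP-1 site, 19.7% the ETS core, 7.25% the NF-kB site, 1.63% the interferon-stimulated response element and 1.47% the CArG box. Map2k1 held 2 CRE cores, which begin 149 and 136 bases before the start. Spred2 held 1 CRE core, beginning 51 bases before the start, and 1 ETS core, beginning 33 bases before it. The windows of Spry1, Spry2, Spred1 and Map2k2 held 0 matches to any of the motifs, which says only that these letters are not in these windows. All 6 windows were rich in CpG, with 12 (Spred2) to 31 (Spred1) CpG dinucleotides against a median of 6 over all windows.

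Map3k8, which encodes TPL2, had a stepped pattern over the arrays. Its log2 signal was 8.41 in untreated cells, 10.21 after LPS, 11.28 after LPS/zVAD and 10.29 after LPS/zVAD/Nec-1. The Control array was lowest and the LPS/zVAD array highest, and the arrays of LPS and of LPS/zVAD/Nec-1 lay close together between them. It was 3.48-fold higher with LPS than in Control (log2 ratio 1.80). Of all genes, 8.24% were at least 2-fold higher and 7.20% at least 2-fold lower in that comparison, and 3.65% had a ratio as high as that of Map3k8. With zVAD added it was a further 2.09-fold higher (log2 ratio 1.07), where 3.25% of all genes were higher and 3.59% lower. Genes higher by 2-fold in both steps numbered 73, or 0.598% of all genes, and Map3k8 was the single member among them. The LPS/zVAD array was 7.28-fold above Control for this gene (log2 ratio 2.86), in a comparison in which 8.79% of genes were higher and 10.7% lower. The log2 ratio of LPS/zVAD/Nec-1 to LPS/zVAD was -0.99, just under 2-fold, and it passed 2-fold with arrays centred on their medians (-1.02) or after cyclic loess (-1.06). The signal with Nec-1 lay 0.08 above that of LPS alone, so 92.4% of the log2 difference between LPS/zVAD and LPS was lost on that array. The zVAD and Nec-1 ratios share the LPS/zVAD array, so a deviation of that array alone would give such a loss. Every measured member passed the midpoint between LPS/zVAD and LPS when Nec-1 was added. The zVAD differences of Spred1 (0.04) and Map2k1 (-0.07) were small and turned sign under another scaling. Spry1 was under the filter level with LPS. A deviation of the shared array would favour such a passing, and the share of all genes is not given, so nothing is read from it.

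The MEK genes, Map2k1 for MEK1 and Map2k2 for MEK2, did not share a pattern. Map2k1 measured log2 11.06 in Control, 12.05 in LPS, 11.98 in LPS/zVAD and 12.08 in LPS/zVAD/Nec-1. The Control array was lowest, and the 3 arrays with LPS differed among themselves by at most 0.10. Its ratio of LPS to Control was 1.98-fold (log2 ratio 0.99), just under the threshold, and it passed with centred arrays (1.09) and after cyclic loess (1.01). Such a ratio or a higher one was found for 8.36% of all genes. Map2k2 measured log2 10.05, 9.97, 9.59 and 9.97 in the same order of arrays. The LPS/zVAD array was lowest, with a log2 ratio to LPS of -0.38, and the LPS/zVAD/Nec-1 array was 0.38 above it, at the level of LPS (9.97). Map2k2 was under 2-fold in every comparison, and 24.3% of all genes had a ratio of LPS/zVAD to LPS as low as this one.

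**Figure D1:**
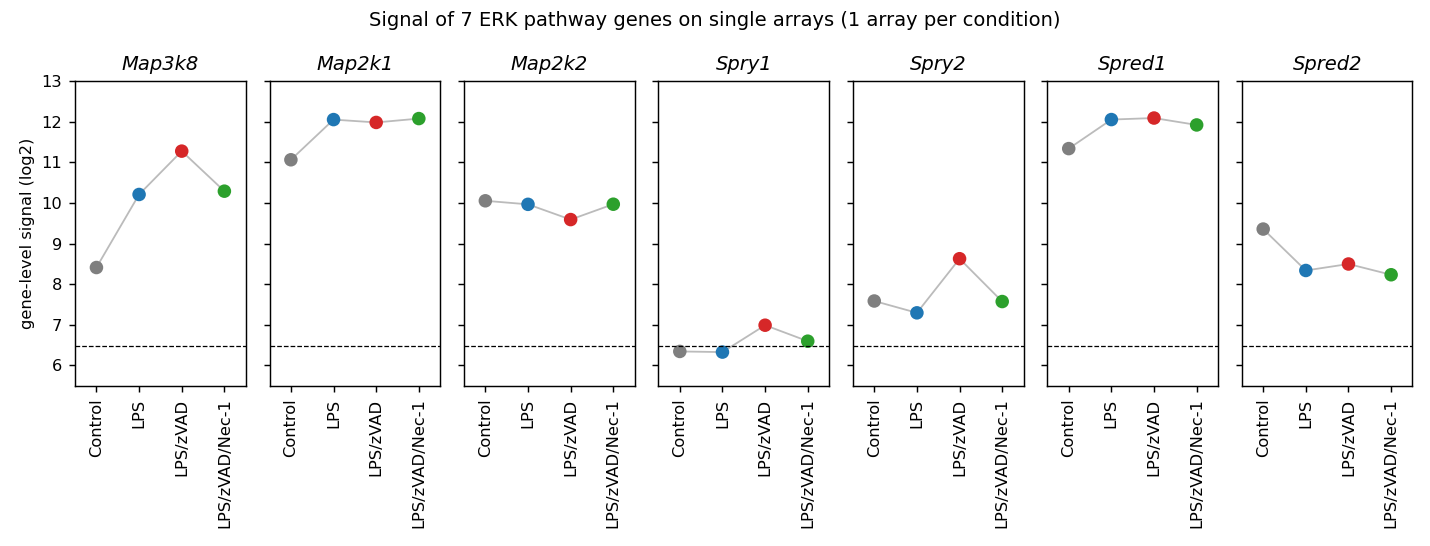
Log2 gene-level signal (vertical axis) of each measured gene on the array of each condition (horizontal axis), 1 point per array joined by a line to guide the eye, with the filter level of 6.47 dashed. Map3k8, Spry1, Spry2 and, by a small margin, Spred1 have their highest point on the LPS/zVAD array, Map2k1 is lowest in Control and Spred2 highest there.

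Spry2, a Sprouty inhibitor of receptor-driven Ras and ERK signalling, had the highest ratio of these genes when zVAD was added. It stood at log2 7.59 in Control, 7.30 in LPS, 8.63 in LPS/zVAD and 7.57 in LPS/zVAD/Nec-1. The LPS/zVAD array stood above the other 3, which lay within 0.29 of one another. LPS alone left Spry2 under 2-fold (log2 ratio -0.29). With zVAD it was 2.52-fold higher than with LPS (log2 ratio 1.33), and 1.83% of all genes had a ratio as high. With Nec-1 it was 2.08-fold lower than with LPS/zVAD (log2 ratio -1.05). In that comparison 3.32% of all genes were at least 2-fold lower and 1.14% at least 2-fold higher. On the LPS/zVAD/Nec-1 array, 79.1% of the log2 difference between LPS/zVAD and LPS was lost. Genes both 2-fold higher with zVAD and 2-fold lower with Nec-1 numbered 306, or 2.51% of all, and included Spry2 and no other member as deposited (with centred arrays or cyclic loess Map3k8 met both limits too). Of the 396 genes 2-fold higher with zVAD, these 306 were the larger part, so the reversal was not particular to Spry2. The zVAD and Nec-1 ratios share the LPS/zVAD array, so a deviation of that array alone would move both. Against Control, Spry2 was 2.06-fold higher with LPS/zVAD (log2 ratio 1.04).

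Spry1, the other Sprouty gene among the members, was dim. It stood at log2 6.35 in Control, 6.33 in LPS, 6.99 in LPS/zVAD and 6.60 in LPS/zVAD/Nec-1. Only the arrays with zVAD reached the filter level, so the gene passed the filter through the arrays where it was highest. Its log2 ratio of LPS/zVAD to LPS was 0.66 as deposited (1.58-fold, or at least 1.43-fold with the LPS signal set to the filter level), and that of LPS/zVAD/Nec-1 to LPS/zVAD was -0.39. Neither reached 2-fold. Control and LPS were both under the filter level, so they have no order for this gene.

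The Spred genes had log2 ratios of opposite sign with LPS. Spred1, which binds the Ras GTPase activator neurofibromin and brings it to the membrane, measured log2 11.34 in Control, 12.05 in LPS, 12.09 in LPS/zVAD and 11.92 in LPS/zVAD/Nec-1. The 3 arrays with LPS lay above Control by at most 0.75 and within 0.17 of one another. The ratio of LPS to Control was 1.64-fold (log2 ratio 0.71), under the threshold. Spred2, its relative with the same kind of action on Ras, measured log2 9.36 in Control, 8.34 in LPS, 8.50 in LPS/zVAD and 8.23 in LPS/zVAD/Nec-1. Here Control was highest and the 3 arrays with LPS lay within 0.27 of one another. The Spred2 signal was 2.03-fold lower on the LPS array than on the Control array (log2 ratio -1.02), and 6.93% of all genes had a ratio as low. The call sits at the threshold, and it was lost with centred arrays (-0.92) and after cyclic loess (-0.92). A second Spred2 probe had log2 signals of 9.23, 8.21, 8.13 and 7.83 in the same order. Its log2 ratio of LPS to Control was -1.01, and its ratio of LPS/zVAD to LPS was -0.08 where that of the first probe was 0.16.

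Read by comparison, LPS against Control left 1 of the 7 genes higher (Map3k8) and 1 lower (Spred2), beside 8.24% and 7.20% of all genes, with a median log2 ratio of -0.02 against -0.12 over all genes. That median of the 7 genes is the ratio of Spry1, whose signals on both arrays were under the filter level, so nothing is read from it. Centring the arrays moved the median of the 19938 genes in this comparison from -0.10 to 0.01. Adding zVAD to LPS left 2 genes higher (Map3k8 and Spry2) and 0 lower, beside 3.25% and 3.59% of all genes, with a median of 0.16 against -0.05. Adding Nec-1 left 0 higher and 1 lower (Spry2), beside 1.14% and 3.32%, with a median of -0.26 against 0.07. LPS/zVAD against Control left 2 higher (Map3k8 and Spry2) and 0 lower, beside 8.79% and 10.7%. With both inhibitors against LPS alone, 0 of 7 genes were higher or lower, in a comparison in which 0.0738% of all genes were higher and 0.541% lower. The ratios of these 7 genes then lay between -0.13 (Spred1) and 0.28 (Spry2), inside the central 95% of all genes (-0.61 to 0.45). That central range is the nearest thing to an error scale in these data, and it holds real differences as well as array error. Counts this small from 7 genes are a description, and nothing particular to the pathway was read from them. The direction balance among all called genes depended on scaling: with zVAD against LPS 47.5% of called genes were higher as deposited, 42.1% with centred arrays, 57.8% after quantile normalization and 59.7% after cyclic loess, and for LPS/zVAD against Control the share was 45.1% as deposited and 58.7% after cyclic loess.

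**Figure D2:**
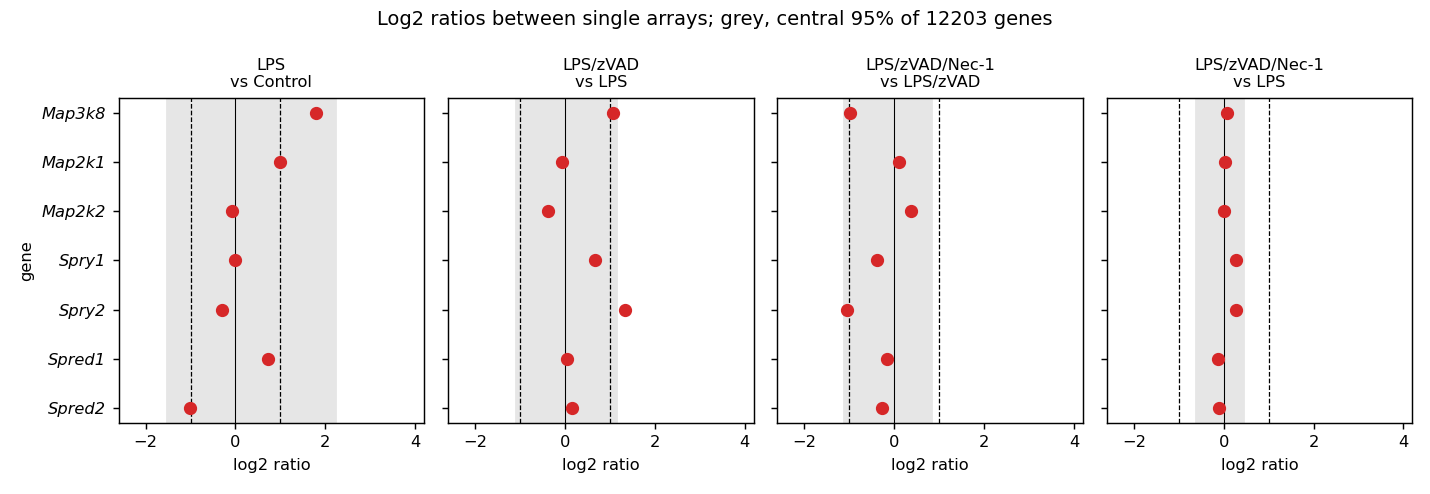
Log2 ratio (horizontal axis) of each measured gene (vertical axis) in 4 comparisons of single arrays, with dashed lines at 2-fold and the central 95% of 12203 genes in grey. With zVAD added to LPS, Spry2 at 1.33 lies to the right of the grey band and Map3k8 at 1.07 inside its edge, and with both inhibitors against LPS all 7 points lie inside it.

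Genes with the most similar pattern were sought by distance over the 3 consecutive log2 ratios (LPS to Control, LPS/zVAD to LPS, LPS/zVAD/Nec-1 to LPS/zVAD). For Map3k8 the nearest were Skil, a corepressor of SMAD signalling (distance 0.12), Resf1 (0.16) and Zfp949 (0.17). For Spry2 they were Gprc5b (0.07), Rsbn1l (0.10) and Fabp5, a fatty acid binding protein (0.12). Gprc5b reached the filter level on the LPS/zVAD array alone (log2 7.20), so its distance rests on 3 signals not separated from background. For Map2k1 the nearest 3 included Nudt13 (0.08) and Ilrun (0.09). For Spred2 they were the lysosomal sialic acid transporter gene Slc17a5 (0.06), Usp36 (0.07) and Cdca8 (0.09). Fabp5 measured log2 11.09 in Control, 10.92 in LPS, 12.25 in LPS/zVAD and 11.18 in LPS/zVAD/Nec-1, which shows the shape shared with Spry2. Among the members, Spred1 was the nearest to Map2k1, at 0.40, while Map3k8 and Spry2 were 2.11 apart, mostly through their unlike response to LPS.

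Other genes of the pathway and its neighbours were read from 8 lists holding 95 genes, of which 84 were measured and 80 passed the filter. The lists too were chosen with earlier results of these data known. With LPS 8 of the 80 (10%) were higher and 6 (7.5%) lower than in Control, near the 8.24% and 7.20% of all genes. With zVAD 4 (5%) were higher and 2 (2.5%) lower than with LPS, against 3.25% and 3.59% of all genes, and with Nec-1 2 (2.5%) were higher and 5 (6.25%) lower than with LPS/zVAD, against 1.14% and 3.32%. The counts of single lists that follow rest on 3 to 19 genes each and are to be read beside the same shares of all genes. Nothing particular to a list was read from them. Next to Map3k8 in the pathway, the list of the TPL2 complex and its upstream regulators had 3 of 5 genes higher with LPS and 0 lower (median log2 ratio 1.03). They were Tnip2, whose product ABIN-2 binds and stabilises TPL2 (1.37), Btrc, a substrate receptor of the ubiquitin ligase that marks p105 (1.03), and Ikbkg, the regulatory subunit of the IkB kinase (1.03). With zVAD 0 of these 5 passed 2-fold, and their median was -0.68. Tnip2 signals were 9.76 for LPS and 9.75 for LPS/zVAD, where Map3k8 was 2.09-fold higher. Probes for Nfkb1 were not analysed here.

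Upstream of MEK, the 12 measured genes of Ras, its adaptors and Raf lay above 0 with LPS in 12 of 12 cases. Their median was 0.31 against -0.12 over all genes. Several values were small, such as those of Nras and Shc1 (0.02 each) and Araf (0.04). Of the 12, 2 were past 2-fold: Sos1, a Ras exchange factor (1.36), and Braf, a Raf kinase (1.08). Shares of all genes above or below 0 are not given beside these sign counts. With zVAD all 12 lay below 0, with a median of -0.49 against -0.05 over all genes, and Sos1 alone passed 2-fold (-1.02). All 12 also lay below 0 with zVAD under the 3 other scalings, although Sos1 was under 2-fold after quantile normalization and cyclic loess (as close to 0 as -0.89), and with LPS 10 of 12 lay above 0 after quantile normalization. With Nec-1 11 of the 12 lay above 0 against LPS/zVAD (median 0.35 against 0.07 over all genes) and 0 passed 2-fold. Map2k2 likewise lay lower with zVAD and higher with Nec-1, under 2-fold, as did Map2k1 by little (-0.07 and 0.10). Map3k8, Spry1, Spry2, Spred1 (0.04 and -0.17) and Spred2 (0.16 and -0.26) had the opposite signs. With zVAD the signs of Map2k1 and Spred1 turned under another scaling, the second Spred2 probe lay below 0, and Spry1 was under the filter level with LPS. Both ratios share the LPS/zVAD array, so a deviation of that array alone would give them opposite signs. Among scaffolds of MEK and ERK, 1 of 9 genes was lower with zVAD, Arrb2, which encodes beta-arrestin 2 (-1.28), and it was higher again with Nec-1 (1.21). Cnksr3, of the family of connector proteins that enhance Ksr, had a log2 ratio just under the threshold with zVAD (0.996, and past it after quantile normalization and cyclic loess) and was lower with Nec-1 (-1.20).

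Among inhibitors of Ras, 9 activators of its GTPase passed the filter, and with LPS Rasa4 was higher (1.96) and Rasa3 lower (-1.98). With zVAD and with Nec-1, 0 of the 9 were past 2-fold. The other Sprouty-type inhibitors gave 0 calls in any comparison. Spry4 lay between 6.36 and 6.56 on the 4 arrays, Spred3 between 6.39 and 6.50 and Il17rd between 6.86 and 6.99, while Spry3 was under the filter level on every array. Signals this close to the filter level leave little room to see a lower value. Spry4 reached that level in Control alone, and Spred3 was under it in Control and with LPS, so no ratio is given for either gene.

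Downstream of ERK, 14 genes often used as readouts of the pathway passed the filter. With LPS 1 was higher and 4 were lower, beside 8.24% and 7.20% of all genes. The higher one was Ier3 (1.22), and Dusp4 joined it at 1.05 with centred arrays. The lower ones were Dusp6, an ERK-selective phosphatase (-2.27), Ccnd1, the gene of cyclin D1 (-2.01), Etv5 (-1.87) and Myc (-1.43). With zVAD 3 were higher and 0 lower, beside 3.25% and 3.59% of all genes: the early transcription factor gene Egr1 (2.86), the phosphatase gene Dusp4 (2.25) and Phlda1 (1.21). These 3 had Nec-1 ratios of at least 2-fold in the other direction, at -1.79, -1.55 and -1.59, as had 306 of the 396 genes higher with zVAD. The 4 genes lower in LPS than in Control were all under 2-fold with zVAD: Dusp6 (-0.52), Etv5 (-0.39), Myc (-0.13) and Ccnd1 (0.25). The listed readouts thus differed in direction. With both inhibitors Egr1 was the single gene of the 80 past 2-fold against LPS (1.07, and 0.99 with centred arrays). Among 9 ERK substrates, Elk4, a partner of serum response factor, was higher with zVAD (1.12) and lower with Nec-1 (-1.20), and Mknk1, a kinase of the cap-binding factor eIF4E, was 1.01 with Nec-1, a call lost under each of the 3 other scalings (as low as 0.94). Of 19 kinases of the parallel p38 and JNK pathways, 1 was higher with LPS, Mapkapk2 (1.01, and 0.88 after quantile normalization), and 1 lower, Map2k6 (-1.20, and -0.76 with low signals raised to the filter level). With zVAD and with Nec-1, 0 of the 19 were past 2-fold (1 after cyclic loess, Map3k2, lower with Nec-1), and the values of highest size with zVAD were Mapk9 (-0.95) and Mapk14 (-0.87).

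**Figure D3:**
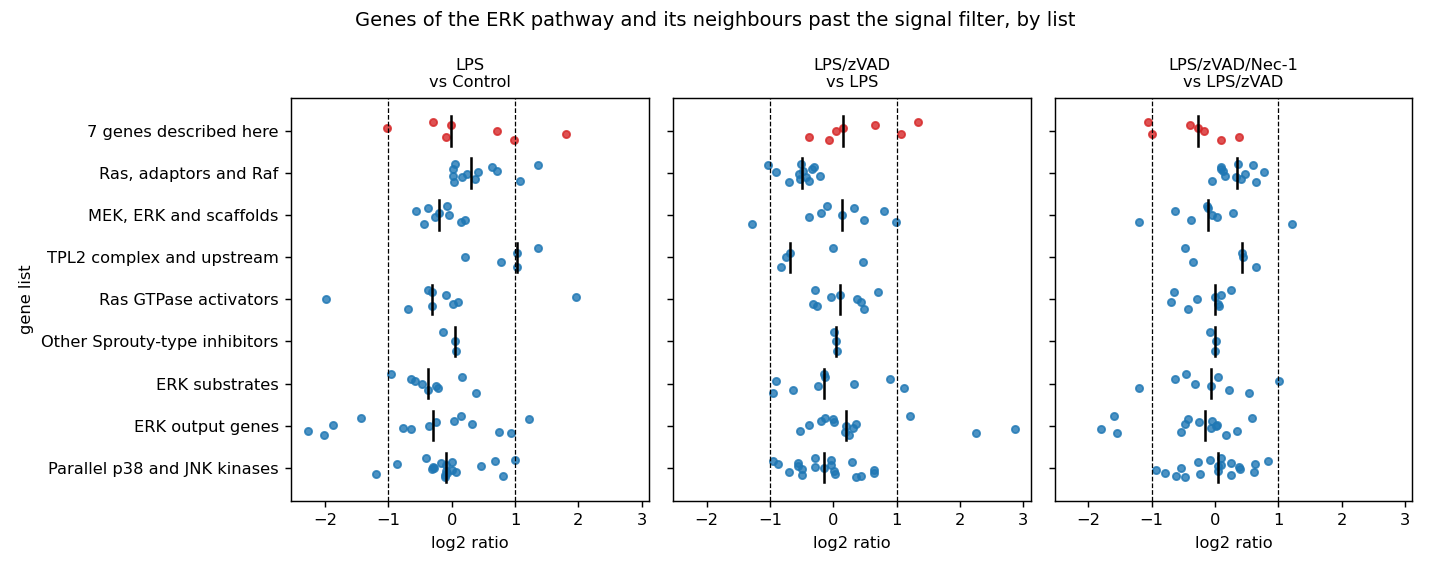
Log2 ratio (horizontal axis) of genes past the signal filter in each list (vertical axis) for 3 comparisons of single arrays, with 1 point per gene, a black bar at the list median and dashed lines at 2-fold. The 12 points for Ras, adaptors and Raf lie left of 0 when zVAD is added, and the highest point there is Egr1 at 2.86 among the ERK output genes.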

How the data were processed

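The series holds 4 Affymetrix arrays, 1 for each condition, grouped by their titles. The deposited values are log2 gene-level signals that the authors produced in Affymetrix Expression Console, as the submitters' processing notes say. The scale was inferred from the range of the values. No source used here gives the software version, background correction, summarisation or normalization. Such steps can shift every ratio, so 3 other scalings were tried. Of 35556 probes, 21789 had 1 symbol in the platform annotation and gave 19938 genes, and 7735 of these did not pass the filter level. Array medians lay between 6.41 and 6.52.

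Log2 ratios, ranks and distances were computed in Python 3.11.15, and quantile normalization and cyclic loess with limma 3.58.1. No test was run, since no condition had a replicate. The calculation was tested on simulated data. The members and lists were chosen with earlier results of these data known. Named genes were the members, up to 2 genes per list and comparison with the largest absolute ratio, 9 key genes where measured, and the 3 nearest genes for each member spanning at least 1 log2 unit, leaving out numbered clone symbols and 1 gene that is not reported here. Other names (Ikbkg, Etv5, Myc and Spry3 among them) were picked with their values in view. The NF-kB and ISRE patterns replaced other spellings after a first search, which also matched no member window; the share of all windows was higher for NF-kB and lower for ISRE with the patterns used here. Alternatives also covered thresholds of 1.5-fold and 3-fold, the filter, the mean of all probes, and low signals raised to the filter level.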

Additional observations from a re-analysis of the deposited data

How the results depend on the processing

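No paired analysis was possible because each condition had 1 array. Of 240 ratios of single members recomputed under the alternatives, 233 stayed on their side of 2-fold, 5 passed it that had not, 2 fell under it and 0 changed the sign of a call. Many of the 240 could not move. The filter alternatives leave every ratio as it was, the mean of all probes can move only Spred2, and raised low signals only Spry1. Every ratio that crossed 2-fold did so with centred arrays or cyclic loess. With each array centred on its median, and after cyclic loess, the members higher with LPS than in Control were 2 (Map2k1 joined at 1.09 and 1.01), those lower were 0 (Spred2 at -0.92 in both), and those lower with Nec-1 than with LPS/zVAD were 2 (Map3k8 joined at -1.02 and -1.06). After cyclic loess Map2k1 also passed 2-fold for LPS/zVAD against Control (1.03). At a 1.5-fold threshold the members were 3 higher with LPS, 3 higher with zVAD, 2 lower with Nec-1, and 5 higher and 1 lower with LPS/zVAD than in Control. Spry1 is among the 3 with zVAD and the 5, although its LPS and Control signals were under the filter level, and with these set to that level it was 1.43-fold in both. At a 3-fold threshold they were 0 lower with LPS, 0 higher with zVAD, 0 lower with Nec-1 and 1 higher with LPS/zVAD than in Control, which was Map3k8. Over all genes, the called genes with LPS numbered 1884, or 3861 at 1.5-fold and 814 at 3-fold. With zVAD they numbered 834, or 2578 and 221, with Nec-1 544, or 1891 and 125, with both inhibitors against LPS 75, or 426 and 22, and for LPS/zVAD against Control 2377, or 4762 and 989. Quantile normalization, the filter alternatives, the mean of all probes and the raised low signals changed no count of members. Signs of uncalled ratios turned under a scaling for Map2k1 and Spred1 (zVAD against LPS), Map2k2 and Spry1 (LPS against Control) and Map2k1 and Map2k2 (both inhibitors against LPS). A single array for each condition leaves array error unmeasured, and Spry1 lay too near the filter level for a lower value to be seen.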
